A study of Homo sapiens with 12 samples.

Results

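The genes described here build, modify and carry heparan sulfate, and they were taken from RNA sequencing of 2 pancreatic ductal adenocarcinoma (PDAC) cell lines. The set holds 36 genes, chosen by gene symbol among the 48114 gene rows of the expression tables, and each symbol matched exactly 1 row. By role, it holds 5 genes for starting and extending the chain, 5 for N-sulfation and epimerization, 11 O-sulfotransferases, 3 enzymes that edit or cut the chain outside the cell, 4 syndecans, 6 glypicans and 2 basement membrane core proteins. PANC-1, a line of the basal-like PDAC subtype, received a control siRNA (siCtrl) or had either of 2 splicing factors silenced with siRNAs at 40 nM, QKI in the group siQKI and RBFOX2 in the group siRBFOX2, and polyA RNA was sequenced after 48 h. HPAF-II, a line of the classical subtype, received siCtrl only, so it has no knockdown group. There were 3 libraries in each of the 4 groups. All libraries came from single established lines grown in culture and each subtype was represented by 1 line, so subtype and line cannot be told apart.

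Heparan sulfate is a long, negatively charged sugar chain attached to a small number of core proteins at the cell surface and in basement membranes. The EXT1 and EXT2 proteins, acting as a complex, extend a backbone of alternating sugars; NDST enzymes then replace acetyl groups with sulfate, GLCE converts glucuronic to iduronic acid, and HS2ST, HS6ST and HS3ST enzymes add sulfate at defined positions. The resulting sulfation pattern sets which growth factors, chemokines and morphogens the chain can hold, and in epithelial tumours the syndecans and glypicans act as co-receptors for such ligands.

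Values are normalized counts, that is gene counts divided by a size factor for each library, and the PANC-1 and HPAF-II tables were normalized separately. QKI held 24539 to 26150 normalized counts in siCtrl and 4630 to 5453 in siQKI, and RBFOX2 held 15355 to 15508 in siCtrl and 1712 to 2403 in siRBFOX2, so both targets were lower in the libraries that carry their names. RBFOX2 was also lower in siQKI, at 12520.0 to 12778 (log2 fold change -0.29, adjusted p = 0.0207 from limma). Size factors were inferred as 1 divided by the smallest value above 0 in each library, which takes that value to be 1 count. So inferred, they spanned 0.877 to 1.147 for the PANC-1 libraries, and for those of HPAF-II 0.81 to 1.09. After rescaling each library to 1000000 normalized counts, 6 epithelial marker genes summed to 2550 to 2643 in PANC-1 siCtrl and 10943 to 11850 in HPAF-II, whereas the mesenchymal markers VIM, ZEB1 and CDH2 summed to 5376 to 5567 and 1.09 to 16.2. The top of the HPAF-II range came from replicate 1, where VIM was 15.2, against 0.283 and 0.300 in replicates 2 and 3. COL1A2 (3.47, 0.0 and 0.0) and DCN (0.997, 0.064 and 0.12) were also highest in HPAF-II replicate 1, for a reason that was not tested. On that scale the epithelial sum was 2558 to 2715 in siQKI and 2133 to 2290 in siRBFOX2, and the mesenchymal sum 5138 to 5293 and 5491 to 5541. In PANC-1, KRT8, KRT18 and KRT19 made up most of the epithelial sum and VIM most of the mesenchymal sum. Single markers moved in different directions. In siQKI and siRBFOX2, CDH1 rose (log2 fold change 1.39 and 0.53) and KRT18 fell (-0.20 and -0.35). CDH2 rose in both (0.265 and 0.22), whereas VIM (-0.13) and ZEB1 (-0.28) fell in siQKI only. The sum of 6 fibroblast markers, most of it COL1A1, was 12.1 to 13.9 in siCtrl, 25.9 to 29.3 in siQKI, 15.4 to 23.1 in siRBFOX2 and 19.1 to 23.3 in HPAF-II, with DCN at 0 in all PANC-1 libraries. The sum of 5 leukocyte markers, nearly all of it CD68, was 146.3 to 170.4, 117.4 to 119.2, 127.9 to 134.6 and 79.3 to 107.3 in the same order, with CD3E at 0 in all PANC-1 libraries and PTPRC at 0 in siCtrl, siQKI and HPAF-II. Endothelial and exocrine marker sums stayed at or below 1.17 in every group. The part of these shifts in the results below was not tested. In bulk RNA, fewer cells that express a gene and less RNA per cell cannot be told apart.

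To ask how loss of each splicing factor bears on this pathway, both knockdowns were compared with siCtrl by limma on log2(normalized count + 1) over 22544 genes, those averaging 10 or more across the 9 PANC-1 libraries. Of the 36 members, 27 were tested. In siQKI, 14 of the 27 passed an adjusted p of 0.05, against 33.0% of all tested genes. Of these, 10 rose, where 14.9% of all tested genes did, and 4 fell, where 18.1% did. In siRBFOX2, 10 of the 27 passed, against 26.5% of all tested genes, with 6 higher (12% of all tested genes) and 4 lower (14.5%). In a fit limited to the 14132 tested genes with a transcript GC value, 46.9% passed in siQKI and 39.1% in siRBFOX2. The members' shares in the main fit, 51.9% and 37.0%, lie closer to these. The median log2 fold change over the 27 members was 0.19 in siQKI, beside 0.03 over all tested genes, and 0.12 in siRBFOX2, beside 0.01. Of the 27 members, 5 were called and at least 1.5-fold changed in siQKI and 2 in siRBFOX2, where 9.03% and 5.71% of all tested genes were. Both comparisons use the same 3 siCtrl libraries, so their values are given side by side and no overlap between them is tested.

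**Figure D1:**
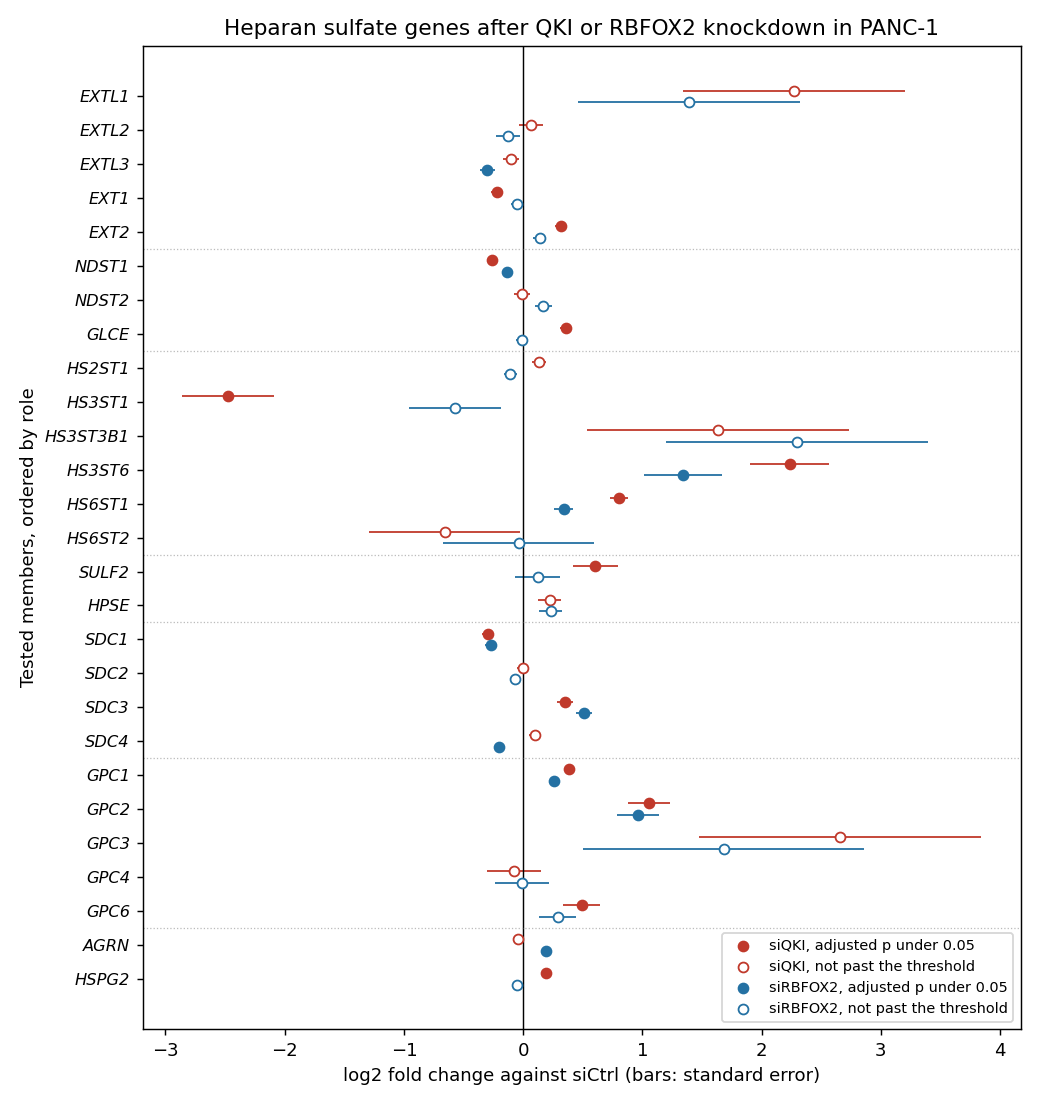
Log2 fold change against siCtrl (x axis, bars are standard errors) of the 27 tested members, ordered by role, in siQKI (red) and siRBFOX2 (blue), with filled points for adjusted p under 0.05. HS3ST1 lies farthest to the left at -2.47 in siQKI, and the points with wide bars (EXTL1, HS3ST3B1, GPC3) belong to genes with low counts that did not pass.

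Rescaling changed the balance of directions more than the number of calls. With each library scaled to its upper quartile, 58.0% of all siQKI calls and 53.5% of all siRBFOX2 calls were upward, and with scaling to the library total 57.7% and 60.1% were, against 45.2% and 45.3% as deposited. Among the 27 tested members, total scaling gave 13 higher and 4 lower in siQKI and 9 higher and 2 lower in siRBFOX2. Of all 22544 tested genes, it gave 4151 higher and 3049 lower in siQKI, and 3454 and 2290 in siRBFOX2. Directions of the small changes below are therefore relative to the deposited size factors.

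The subunits of the chain-extending complex moved apart in siQKI. EXT2 (chr11:44095549-44251962) held 13556, 14270.0 and 14978 normalized counts in siCtrl, 18776, 17589 and 17018 in siQKI and 16279.8, 15117 and 15680.3 in siRBFOX2. Every siQKI library was above every siCtrl library, and EXT2 rose in siQKI (log2 fold change 0.32 ± 0.05 (SE), adjusted p = 1.94e-04). In siRBFOX2 its libraries also lay above siCtrl, without passing the test (log2 fold change 0.14 ± 0.05 (SE), adjusted p = 0.0627). EXT2 stayed uncalled there in 14 of 20 alternatives to the main fit. In the others, both rescalings among them, it passed, with adjusted p down to 0.00658 from limma. EXT1 (chromosome 8) held 13647, 12904 and 14135 in siCtrl and 11645, 11711 and 11486 in siQKI, with no overlap, and fell (log2 fold change -0.22 ± 0.05 (SE), adjusted p = 0.00147). The siRBFOX2 libraries of EXT1, at 13416, 12940.0 and 12828, overlapped siCtrl (log2 fold change -0.05 ± 0.05 (SE), adjusted p = 0.452).

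The ratio of EXT2 to EXT1 within a library does not depend on the size factor. It was 0.993, 1.11 and 1.06 in the siCtrl libraries, 1.61, 1.502 and 1.48 in siQKI, and 1.21, 1.17 and 1.22 in siRBFOX2. Means were 1.05 ± 0.0566 (SD, n = 3), 1.53 ± 0.0703 and 1.20 ± 0.0290, and no library of 1 group entered the range of another. The ratio is a description with no test, and the pair was chosen with earlier results of these data known.

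EXTL3, a glycosyltransferase that starts the chain on the linker, was the elongation-group gene called in siRBFOX2. It held 6398, 5979 and 7012 in siCtrl and 5349.5, 5068 and 5310.1 in siRBFOX2, with all siRBFOX2 libraries lower, and fell (log2 fold change -0.30 ± 0.07 (SE), adjusted p = 0.00291). In siQKI it was at 6331, 5925 and 5769, overlapping siCtrl (log2 fold change -0.10 ± 0.07 (SE), adjusted p = 0.258). EXTL2 held 1404 to 1782 normalized counts over the 9 PANC-1 libraries and passed in neither comparison. EXTL1 was near the limit of detection, with 5.997 to 17.2 in siCtrl, 29.4 to 93.5 in siQKI and 5.56 to 107.5 in siRBFOX2, and did not pass (adjusted p = 0.0762 and 0.318 from limma).

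NDST1, the main N-deacetylase/N-sulfotransferase of most cells, and GLCE, the epimerase that acts after it, went in opposite directions in siQKI. NDST1 (chr5:150485999-150558211) held 53471, 51744 and 52015 in siCtrl, 45847, 43229.6 and 42321 in siQKI and 50042, 47894 and 45318 in siRBFOX2. Both knockdowns lay below all siCtrl libraries, and NDST1 fell in siQKI (log2 fold change -0.26 ± 0.04 (SE), adjusted p = 2.82e-04) and in siRBFOX2 (log2 fold change -0.14 ± 0.04 (SE), adjusted p = 0.0327). The siRBFOX2 call was not stable: it was lost in 8 of 20 alternatives, among them both rescalings and leaving out siCtrl replicate 1, 2 or 3 or siRBFOX2 replicate 2 or 3, with adjusted p up to 0.231. GLCE (chr15:69160571-69272207) held 8786, 9184 and 8597 in siCtrl and 11757, 11396 and 10996 in siQKI. Its siQKI libraries were all higher and it rose (log2 fold change 0.36 ± 0.05 (SE), adjusted p = 7.10e-05), while siRBFOX2, at 8896, 8320.3 and 9212, overlapped siCtrl (log2 fold change -0.01 ± 0.05 (SE), adjusted p = 0.934).

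The ratio of GLCE to NDST1 was 0.164 to 0.178 in siCtrl, 0.256 to 0.264 in siQKI and 0.174 to 0.203 in siRBFOX2. NDST2 passed in neither comparison, and its counts are uncertain, since 82.9% of its exon bases are shared with a same-strand annotated gene, AC022400.6, in GENCODE. NDST3 was listed at 0 in all 12 libraries, and NDST4 at 0 in all but HPAF-II replicate 1.

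QKI and RBFOX2 bind RNA at short motifs, and the untranslated regions (UTRs) of the members were searched for them on the transcript strand: ACTAAC for QKI and TGCATG for RBFOX2, spelled in DNA letters. The motif windows found in members that changed in the matching knockdown are shown, with the motif in capitals. Sequences are from GENCODE v29 transcripts on GRCh38. NDST1 holds both motifs, with 2 matches each.
NDST1, ACTAAC, chr5:150555931-150555960, plus strand: acttctcctcccACTAACagacctttcttg
NDST1, ACTAAC, chr5:150558167-150558196, plus strand: gtacaatctcgaACTAACtgctaataaagt
SULF2, ACTAAC, chr20:47658074-47658103, minus strand: caaaaagtcaccACTAACcctcccccagaa
GPC6, ACTAAC, chr13:94406890-94406919, plus strand: ttccatttacttACTAACgaacagacctga
NDST1, TGCATG, chr5:150557253-150557282, plus strand: gaaggaggaggcTGCATGcctgaaggctgg
NDST1, TGCATG, chr5:150557951-150557980, plus strand: ttttgtaatttgTGCATGaaattcatgtca
GPC1, TGCATG, chr2:240466791-240466820, plus strand: cctctgagatgaTGCATGatgccctcccct

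ACTAAC was in the 3′ UTR of 3 of the 14 members called in siQKI and of 6 of the 13 tested members that were not called. TGCATG was in 2 of the 10 members called in siRBFOX2 and in 11 of the 17 not called. Per 1000 bases of 3′ UTR, the called members held 0.117 ACTAAC matches, the members not called 0.209 and all genes 0.126. For TGCATG the values were 0.166, 0.313 and 0.323. Among the 8758 genes with at least 1000 bases of 3′ UTR, the first 1000 bases held ACTAAC in 11.4% and TGCATG in 26.2%. They held ACTAAC in 3 and TGCATG in 5 of the 27 members of that length, a different set from the 27 tested. The counts of called members above cover whole 3′ UTRs. A match describes the letters only, and the search says nothing about binding. Introns, coding sequence, 5′ UTRs and variants of the motifs were not searched.

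Among members that passed the test, O-sulfotransferases held the largest changes. HS6ST1, which adds sulfate at the 6-O position of glucosamine, rose in both knockdowns. HS6ST1 (chr2:128265480-128318868) held 3268, 3390.1 and 3562 in siCtrl, 6349, 6336 and 5231 in siQKI and 4069, 4335 and 4530.2 in siRBFOX2. The 3 groups did not overlap, with siQKI highest, and the changes were 1.75-fold in siQKI (log2 fold change 0.81 ± 0.08 (SE), adjusted p = 1.47e-06) and 1.26-fold in siRBFOX2 (log2 fold change 0.34 ± 0.08 (SE), adjusted p = 0.00452). HS2ST1, the sole 2-O-sulfotransferase, passed in neither comparison, at 6492, 6655 and 6366 in siCtrl and 7031, 7406 and 6998 in siQKI (log2 fold change 0.14 ± 0.06 (SE), adjusted p = 0.0824), and at 6093, 5662 and 6378 in siRBFOX2 (log2 fold change -0.11 ± 0.06 (SE), adjusted p = 0.193). In siQKI, HS2ST1 stayed uncalled in 17 of 20 alternatives and passed under both rescalings and with the GC trend removed. The within-library ratio of HS6ST1 to HS2ST1 was 0.503 to 0.559 in siCtrl, 0.748 to 0.903 in siQKI and 0.668 to 0.766 in siRBFOX2.

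The 3-O-sulfotransferases HS3ST1 and HS3ST6 went opposite ways in siQKI. HS3ST1, the isoform known for making the antithrombin-binding site of heparin, fell in siQKI. HS3ST1 (chr4:11393150-11429765) held 195.3, 223.9 and 212.3 in siCtrl and 55.9, 39.2 and 23.1 in siQKI, 0.180 times siCtrl on the fitted scale (log2 fold change -2.47 ± 0.39 (SE), adjusted p = 1.38e-04). The siRBFOX2 libraries, at 147.2, 183.0 and 104.7, also lay below siCtrl but spread widely and did not pass (log2 fold change -0.57 ± 0.39 (SE), adjusted p = 0.323). HS3ST6 (chr16:1911475-1918415) held 75.6, 161.9 and 66.4 in siCtrl, 569.0, 326.2 and 472.9 in siQKI and 217.7, 288.6 and 214.9 in siRBFOX2. All knockdown libraries were above all siCtrl libraries, and it rose 4.72-fold in siQKI (log2 fold change 2.24 ± 0.33 (SE), adjusted p = 8.67e-05) and 2.53-fold in siRBFOX2 (log2 fold change 1.34 ± 0.33 (SE), adjusted p = 0.00709).

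Of the other O-sulfotransferases, HS3ST3B1 (0.0 to 32.6 normalized counts in PANC-1) and HS6ST2 (24.4 to 176.1) were tested and did not pass. HS6ST2 varied widely within groups, with 174.2, 38.0 and 176.1 in siCtrl, 141.4, 24.4 and 83.9 in siQKI and 103.1, 99.8 and 105.6 in siRBFOX2. HS3ST2 and HS3ST4 were listed at 0 in all 12 libraries, and HS3ST3A1, HS3ST5 and HS6ST3 were under the minimum, with no PANC-1 library above 22.02.

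**Figure D2:**
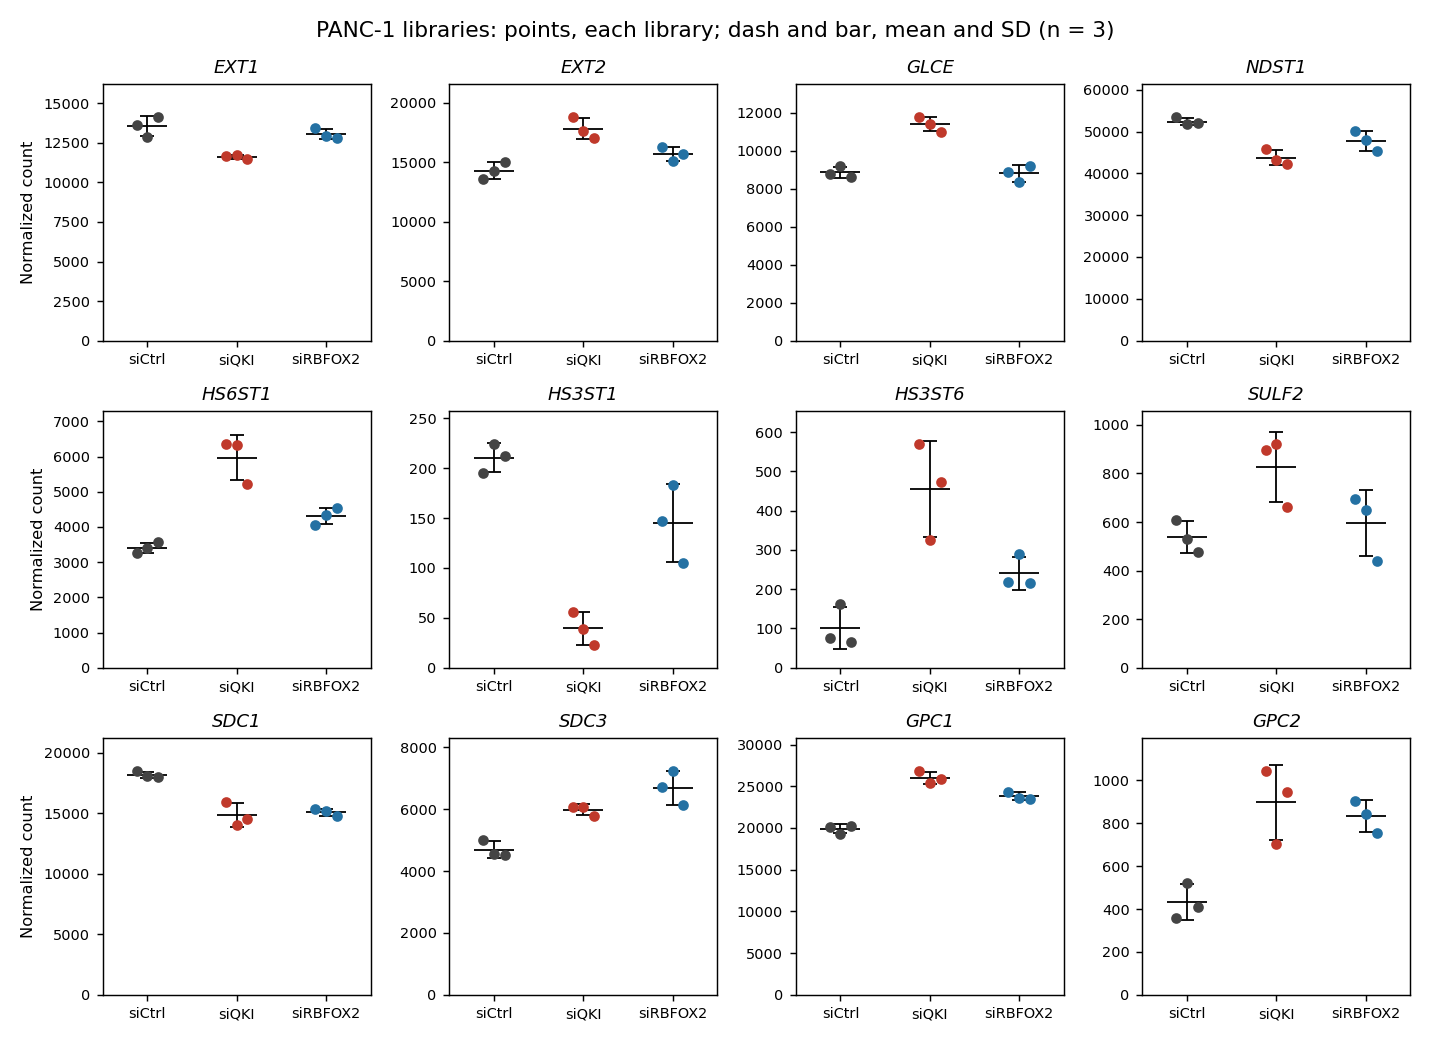
Normalized counts (y axis, from 0) of 12 members in each PANC-1 library by siRNA group, with the mean and SD of 3 libraries. The siQKI points of HS3ST1 (23.1 to 55.9) sit under all others, and those of HS6ST1 (5231 to 6349) above all others.

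Outside the cell, SULF2 removes 6-O-sulfates from finished chains and HPSE (heparanase) cuts them. SULF2 (chr20:47656912-47786627) held 609.8, 528.7 and 477.9 in siCtrl and 897.4, 920.1 and 660.5 in siQKI, with all siQKI libraries higher, and rose (log2 fold change 0.61 ± 0.19 (SE), adjusted p = 0.0226). That call was lost in 5 of 20 alternatives, with adjusted p up to 0.0944: leaving out siCtrl replicate 2 or 3 or siQKI replicate 1 or 2, and fitting without the mean-variance trend. In siRBFOX2 it was at 695.1, 649.9 and 440.0 and overlapped siCtrl (log2 fold change 0.12 ± 0.19 (SE), adjusted p = 0.704). HPSE held 1689.6, 1763 and 2060.5 in siCtrl, 2058, 2229.9 and 2137 in siQKI and 2252, 1914 and 2297 in siRBFOX2; the groups overlapped and neither knockdown passed (log2 fold change 0.23 ± 0.10 (SE), adjusted p = 0.0925 in siQKI). HPSE stayed uncalled in 16 of 20 alternatives in each knockdown, with adjusted p down to 0.0296 in siQKI and 0.0353 in siRBFOX2 from limma. SULF1 was listed at 0 in all but siQKI replicate 3, which held 12.6.

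The syndecans, transmembrane core proteins, did not move as a family. SDC1 (chr2:20200797-20225475) held 18455, 18116 and 18003 in siCtrl, 15926, 14003 and 14548 in siQKI and 15336, 15187 and 14782 in siRBFOX2. Both knockdowns were below siCtrl in every library, and SDC1 fell in siQKI (log2 fold change -0.30 ± 0.05 (SE), adjusted p = 2.19e-04) and in siRBFOX2 (log2 fold change -0.27 ± 0.05 (SE), adjusted p = 7.82e-04). SDC3 (chr1:30869466-30908758) held 5019, 4554 and 4522 in siCtrl, 6085, 6084 and 5779 in siQKI and 6717, 7221 and 6131 in siRBFOX2. It was above siCtrl in every knockdown library and rose in siQKI (log2 fold change 0.35 ± 0.07 (SE), adjusted p = 8.15e-04) and in siRBFOX2 (log2 fold change 0.51 ± 0.07 (SE), adjusted p = 5.29e-05). The SDC3 transcript is 68.5% GC, and with a trend of each library on transcript GC removed, an alternative chosen after seeing the data, the siQKI change became 0.16 and lost its call (adjusted p = 0.0688 from limma).

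SDC4 (chr20:45325288-45348426), the syndecan of focal adhesions, held 64029.8, 57959 and 59683 in siCtrl, 63799, 67597 and 63078 in siQKI and 50519.9, 54932 and 52407 in siRBFOX2. It fell in siRBFOX2, with no overlap (log2 fold change -0.20 ± 0.05 (SE), adjusted p = 0.00421), and not in siQKI, whose libraries overlapped siCtrl (log2 fold change 0.10 ± 0.05 (SE), adjusted p = 0.12). The siRBFOX2 call was lost with total scaling and without the mean-variance trend, with adjusted p up to 0.0616. In siQKI, SDC4 stayed uncalled in 16 of 20 alternatives, with adjusted p down to 0.0159 from limma. SDC2 did not pass in either knockdown, at 19522, 18944 and 18497 in siCtrl, 19201, 18174 and 19606 in siQKI and 19422, 17539 and 17555 in siRBFOX2.

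Glypicans are core proteins held to the membrane by a lipid anchor, and all that passed the test rose. GPC1 (chr2:240435663-240468078), long studied in pancreatic cancer, held 20118, 19334 and 20293 in siCtrl, 26773, 25359 and 25871 in siQKI and 24345, 23584 and 23514 in siRBFOX2. The 3 groups did not overlap, and GPC1 rose in siQKI (log2 fold change 0.39 ± 0.04 (SE), adjusted p = 3.03e-06) and in siRBFOX2 (log2 fold change 0.26 ± 0.04 (SE), adjusted p = 2.23e-04). With the GC trend removed, the siQKI rise of GPC1 (66.7% GC) was 0.20 and kept its call. GPC2 (chr7:100165197-100177381) held 359.9, 522.7 and 410.5 in siCtrl, 1041, 704.7 and 945.7 in siQKI and 901.2, 841.6 and 755.8 in siRBFOX2. All knockdown libraries were higher, with a rise of 2.08-fold in siQKI (log2 fold change 1.05 ± 0.17 (SE), adjusted p = 2.36e-04) and 1.95-fold in siRBFOX2 (log2 fold change 0.96 ± 0.17 (SE), adjusted p = 7.72e-04). The GPC2 row overlaps the deposited coordinates of GAL3ST4. In GENCODE, GPC2 shares 0.0% of its exon bases with another gene, but that gene model starts at chr7:100169606. The deposited row starts at 100165197, so the GENCODE value does not cover all of it. Whether reads of GAL3ST4 entered the GPC2 counts was not tested.

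GPC6 (chr13:93226807-94408020) held 597.4, 675.6 and 485.9 in siCtrl and 783.4, 794.5 and 877.6 in siQKI, all higher, and rose (log2 fold change 0.49 ± 0.15 (SE), adjusted p = 0.0237). The call was lost in 4 of 20 alternatives, with adjusted p up to 0.112: leaving out siCtrl replicate 3 or siQKI replicate 2 or 3, and fitting without the mean-variance trend. In siRBFOX2, at 599.4, 763.2 and 785.5, it overlapped siCtrl (log2 fold change 0.29 ± 0.15 (SE), adjusted p = 0.2). GPC4 held 495.9, 343.8 and 271.6 in siCtrl, 303.3, 355.8 and 363.8 in siQKI and 417.5, 311.9 and 350.1 in siRBFOX2, and did not pass. GPC3 ranged from 0.0 to 91.2 in PANC-1 and did not pass, and GPC5, at 0.0 to 23.2, was under the minimum.

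The basement membrane core proteins split between the knockdowns. AGRN (agrin, chr1:1020120-1056116) held 117988, 124879 and 124599 in siCtrl, 121879, 118109 and 117484 in siQKI and 147173, 134560.5 and 137168 in siRBFOX2. It rose in siRBFOX2, whose libraries were all higher (log2 fold change 0.19 ± 0.04 (SE), adjusted p = 0.00293), and overlapped siCtrl in siQKI (log2 fold change -0.04 ± 0.04 (SE), adjusted p = 0.518). With the GC trend removed, AGRN (67.6% GC) was lower in siQKI at -0.23, with an adjusted p of 8.99e-05 from limma. HSPG2 (perlecan, chr1:21822244-21937310) held 35076, 37181 and 36413 in siCtrl, 42820.4, 40253 and 41132 in siQKI and 35098, 34634 and 35227 in siRBFOX2. It rose in siQKI, with no overlap (log2 fold change 0.19 ± 0.04 (SE), adjusted p = 0.00115), and overlapped siCtrl in siRBFOX2 (log2 fold change -0.05 ± 0.04 (SE), adjusted p = 0.397). With the GC trend removed, the siQKI rise of HSPG2 was 0.11 and kept its call (adjusted p = 0.0151 from limma).

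Transcript GC is given for the members that rose as a description, with no test. The 10 members higher in siQKI had a median transcript GC of 61.1% (range 39.0% to 71.8%) and the 6 higher in siRBFOX2 of 67.1% (60.9% to 71.8%), beside 50.0% over the 14132 tested genes with a value (quartiles 42.8% and 58.0%). Across those genes, the median log2 fold change in siQKI was 0.06 among genes of 58.1% to 76.8% transcript GC and -0.05 among genes of 31.8% to 42.8%, and in siRBFOX2 0.02 and -0.04. With the trend removed, 17 members were called in siQKI and 13 in siRBFOX2, against 46.5% and 39.2% of the 14128 genes in that fit; with the trend kept in genes with a GC value, the counts were 14 and 11, against 46.9% and 39.1%. Of the 14 siQKI calls, SDC3 was the one lost, and each of the 10 siRBFOX2 calls passed with the trend removed.

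Whether a gene differed between the knockdowns was tested as a contrast of siQKI with siRBFOX2 in the same fit, in which the siCtrl libraries enter the estimate of spread. Between siQKI and siRBFOX2, 11 of the 27 members passed, against 21.5% of all tested genes, with 8 higher in siQKI (9.93% of all tested genes) and 3 lower (11.6%). In the fit limited to genes with a transcript GC value, 32.4% of genes passed. The genes higher in siQKI were EXTL3, EXT2, GLCE, HS2ST1, HS6ST1, SDC4, GPC1 and HSPG2, and those lower were EXT1, HS3ST1 and AGRN. Of the 7 genes called in siQKI alone, EXT1, EXT2, GLCE, HS3ST1 and HSPG2 differed, for example GLCE (log2 fold change 0.37 ± 0.05 (SE), adjusted p = 1.10e-04) and HS3ST1 (log2 fold change -1.90 ± 0.39 (SE), adjusted p = 0.00213). Among those called in siRBFOX2 alone, SDC4 (log2 fold change 0.30 ± 0.05 (SE), adjusted p = 2.22e-04) and AGRN (log2 fold change -0.23 ± 0.04 (SE), adjusted p = 8.15e-04) differed, as did EXTL3 (log2 fold change 0.20 ± 0.07 (SE), adjusted p = 0.0424).

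HS6ST1 rose further in siQKI than in siRBFOX2 (log2 fold change 0.47 ± 0.08 (SE), adjusted p = 4.78e-04). HS2ST1, called in neither knockdown, differed between them (log2 fold change 0.24 ± 0.06 (SE), adjusted p = 0.00582), its siQKI libraries lying above siCtrl and its siRBFOX2 libraries mostly below. SULF2 and GPC6 were called in siQKI only, but their difference between the knockdowns did not pass (adjusted p = 0.0872 and 0.424 from limma). The differences of EXTL3, EXT1, EXT2 and GPC1 were fragile: they were lost in 9, 3, 3 and 6 of 20 alternatives, with leave-outs of knockdown libraries among them, and that of GPC1 was -0.01 with the GC trend removed (adjusted p = 0.903).

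The lines were compared without a test, since their tables were normalized separately: values were rescaled to 1000000 per library (rescaled counts below), and a gene was called where group means were at least 2-fold apart and the 3 libraries of each line did not overlap. HPAF-II replicate 3 stands apart from the others of its group. Of 17178 genes averaging 50 or more in HPAF-II, 14.2% were at least 1.5 times higher in replicate 3 than in either other library, whereas the same count for replicates 1 and 2 was 4.0% and 3.5%. That share was 42.1% among the 3103 genes of 57.6% to 74.7% transcript GC and 1.0% among the 3109 of 31.5% to 42.5%. It held for 7 of 19 members (EXTL3, HS6ST1, SDC1, GPC1, GPC2, AGRN and HSPG2), whose median GC was 61.2%, against 48.0% for the other 12. Results that rest on this library are given with and without it.

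**Figure D3:**
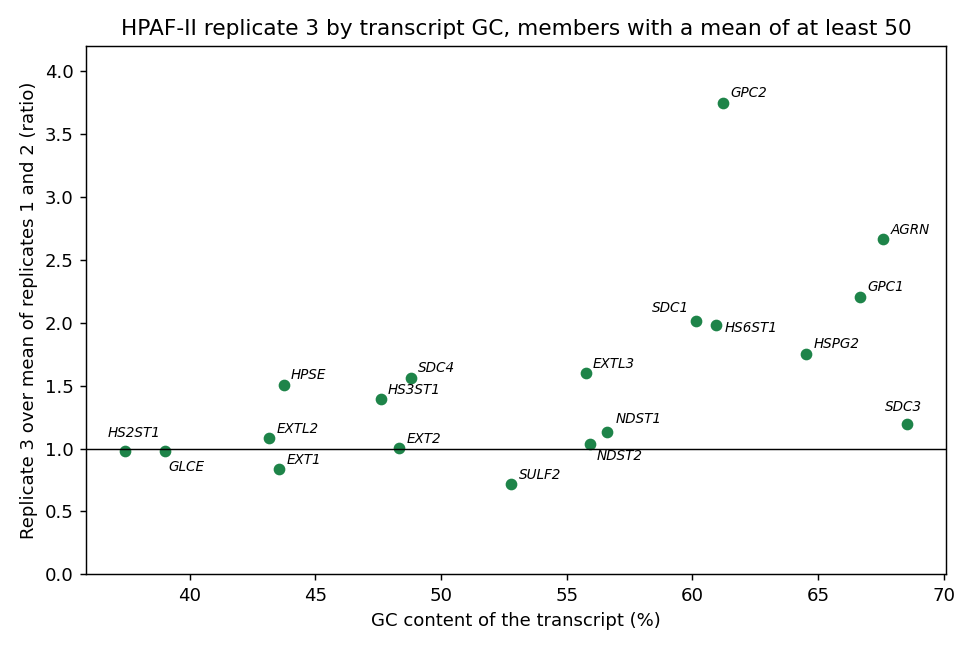
Ratio of HPAF-II replicate 3 to the mean of replicates 1 and 2 (y axis) against transcript GC in percent (x axis) for the 19 members averaging 50 or more in HPAF-II; the line marks 1. AGRN, at 67.6% GC, was 2.66 times the mean of the other libraries, whereas GLCE and HS2ST1, at 39.0% and 37.4%, were near 1; SDC3, at 68.5%, was at 1.19.

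Of 28 members compared, 12 were called, against 42.7% of all genes compared, so the share of called members was near the background. In HPAF-II, 4 were higher (21.1% of all genes compared) and 8 lower (21.6%), and 6 of those 8 were listed at 0 in all HPAF-II libraries. Without HPAF-II replicate 3, 16 members were called, 4 higher and 12 lower, against 47.9% of all genes compared in that setting, the added ones being AGRN, GPC2, HS6ST1 and SDC4.

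Among the modifying enzymes, NDST1 and HS3ST1 lay far apart in opposite directions. NDST1 held rescaled counts of 157.8, 148.6 and 150.7 in the PANC-1 siCtrl libraries and 13.9, 14.9 and 16.2 in HPAF-II, 10.1-fold lower and 10.6-fold lower without replicate 3. HS3ST1 held 0.576, 0.643 and 0.615 in PANC-1 and 39.8, 42.1 and 57.0 in HPAF-II, a log2 ratio of 6.22 and of 6.04 without replicate 3. The ratio of GLCE to NDST1 was 2.37 to 2.73 in HPAF-II and 0.164 to 0.178 in PANC-1 siCtrl.

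SULF2 held rescaled counts of 1.8, 1.518 and 1.384 in PANC-1 and 8.011, 7.351 and 5.479 in HPAF-II, 4.41-fold higher. HPSE held 4.99, 5.06 and 5.97 and 12.6, 10.7 and 17.5, 2.54-fold higher, and 2.18-fold higher without replicate 3. HS6ST1 held 9.65, 9.74 and 10.3 in PANC-1 and 5.03, 4.30 and 9.23 in HPAF-II, where replicate 3 lay close to PANC-1; without it the gene was 2.12-fold lower. HS3ST3B1 was called higher at very low values, up to a rescaled count of 0.152. EXT2 was alike, at 40.0, 41.0 and 43.4 and 43.8, 45.6 and 44.8, and EXT1 was 1.76-fold lower in HPAF-II, under the limit for a call, so that the ratio of EXT2 to EXT1 was 1.81 to 2.27 there.

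Among core proteins, SDC2 was listed at 0 in all HPAF-II libraries and held rescaled counts of 57.6, 54.4 and 53.6 in PANC-1. GPC6 (1.76, 1.94 and 1.41 in PANC-1), GPC4 (1.46, 0.987 and 0.787), HS6ST2 (0.514, 0.109 and 0.510) and HS3ST6 (0.223, 0.465 and 0.192) were also listed at 0 in HPAF-II. So were EXTL1 and GPC3, with rescaled counts of no more than 0.246 in PANC-1, and no fold is given for any of them. GPC4, GPC3 and HS6ST2 lie near each other on chromosome X.

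GPC1 held rescaled counts of 59.4, 55.5 and 58.8 in PANC-1 and 20.7, 19.6 and 44.3 in HPAF-II, 2.05-fold lower, and 2.88-fold lower without replicate 3. Its call was lost when HPAF-II replicate 1 or 2 was left out (log2 ratios -0.86 and -0.83). SDC4 held 189.0, 166.5 and 172.9 and 70.6, 78.7 and 116.4, 1.99-fold lower and 2.36-fold lower without replicate 3. AGRN held 348.2, 358.7 and 360.9 in PANC-1 and 153.2, 153.8 and 407.8 in HPAF-II, where replicate 3 was above and the others below every PANC-1 library; without it AGRN was 2.32-fold lower. SDC1 held 54.5, 52.0 and 52.1 and 61.5, 66.3 and 128.4, higher in every HPAF-II library but by 1.21-fold without replicate 3.

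**Figure D4:**
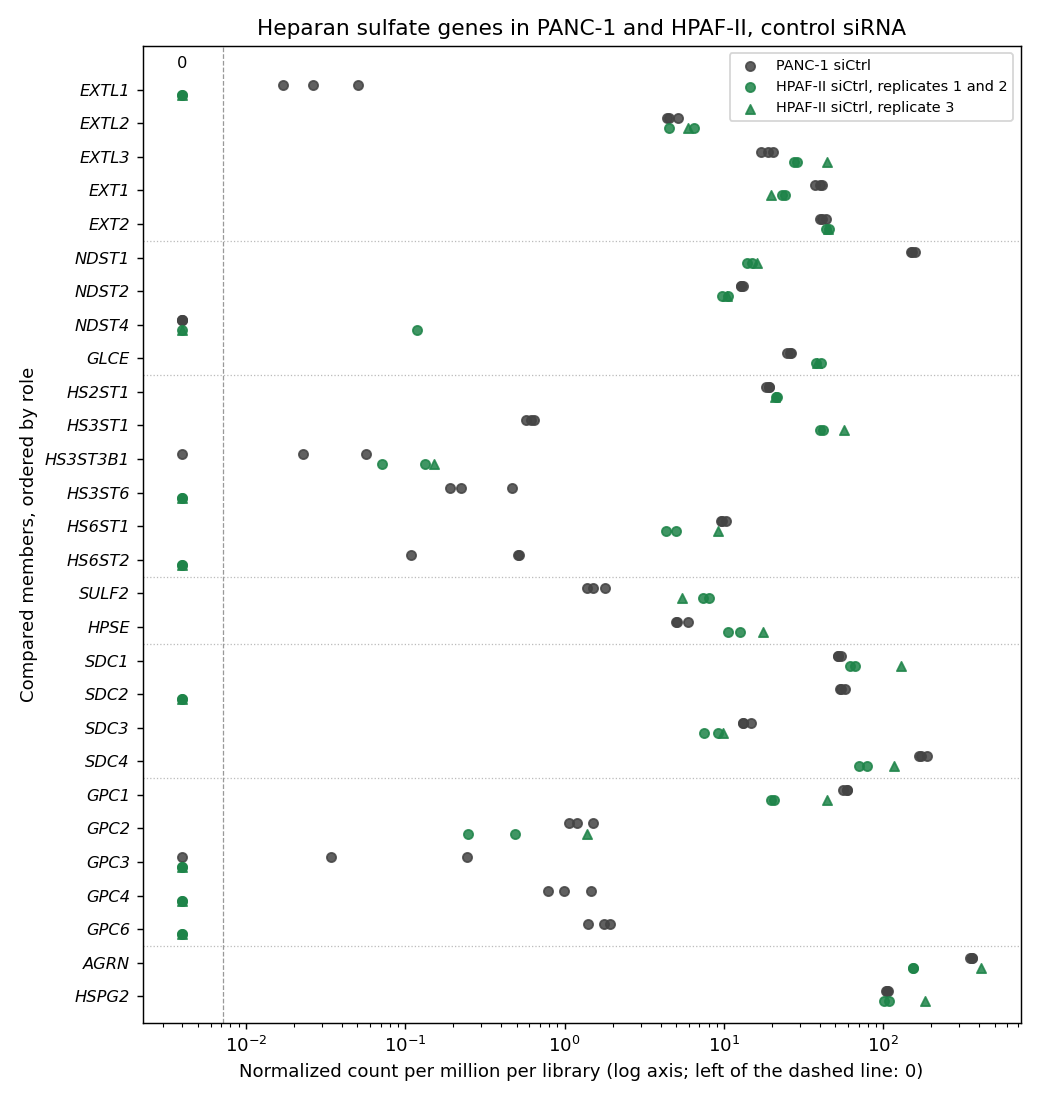
Rescaled counts, to 1000000 per library (x axis, log scale, with 0 drawn at the left), of the 28 compared members in PANC-1 siCtrl (grey) and HPAF-II siCtrl (green, triangles for replicate 3). NDST1 (148.6 to 157.8 and 13.9 to 16.2 in the respective lines) and HS3ST1 (0.576 to 0.643 and 39.8 to 57.0) show the widest separation among members detected in both lines.

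Levels of different genes were compared per kilobase of annotated exon. Among the 36 members, the most abundant core proteins in PANC-1 siCtrl, as rescaled counts per kilobase, were SDC4 at 67.4, AGRN at 33.1, SDC1 at 14.7 and SDC2 at 12.2, and the most abundant enzyme was NDST1 at 15.99, ahead of EXT2 at 7.84 and EXT1 at 4.74. In HPAF-II the order of member core proteins was SDC4 at 33.9, SDC1 at 23.8 and AGRN at 22.2, and the enzymes EXT2 at 8.46, GLCE at 5.89 and HS3ST1 at 5.67 all lay above NDST1 at 1.58. HPAF-II means of SDC1 and AGRN include replicate 3, so their order there was not resolved.

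Genes that feed into or act beside the pathway were followed as a list of 72, of which 67 were tested. In siQKI 41 passed (26 higher, 15 lower), which is 61.2% against 33.0% of all tested genes. In siRBFOX2 27 passed (18 and 9), 40.3% against 26.5%, and between the knockdowns 24 (15 and 9), 35.8% against 21.5%. In the fit limited to genes with a transcript GC value, 46.9%, 39.1% and 32.4% of genes passed in these comparisons. The shares of the list lie closer to these values. The counts by group that follow stand beside 14.9% of all tested genes higher and 18.1% lower in siQKI, and 12% and 14.5% in siRBFOX2. Of 8 lysosomal enzymes that break heparan sulfate down, 4 rose and 2 fell in siQKI, and 4 rose and none fell in siRBFOX2. Of 7 genes for the linker that joins chain and core protein, 2 rose and 1 fell in siQKI and 1 rose in siRBFOX2. Of 9 genes for sulfate and sugar donors, 3 rose and 1 fell in siQKI, and 3 rose and 2 fell in siRBFOX2. Of 15 tested genes for chondroitin and dermatan sulfate, 5 rose and 3 fell in siQKI, and 3 rose and 2 fell in siRBFOX2.

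Among 16 tested ligands that bind heparan sulfate, 6 rose and 5 fell in siQKI (68.8% called, against 33.0% of all tested genes) and 6 rose and 3 fell in siRBFOX2 (56.2%, against 26.5%). Among genes with a transcript GC value, 46.9% and 39.1% were called. CXCL8 held 5496, 4973 and 5991 in siCtrl, 2018, 1799 and 2178 in siQKI and 2550.1, 2986 and 3326 in siRBFOX2, and fell in both (log2 fold change -1.46 ± 0.10 (SE), adjusted p = 5.40e-08 and log2 fold change -0.90 ± 0.10 (SE), adjusted p = 1.28e-05). AREG, a growth factor of the EGF family, also fell in both, by 1.55 and 1.09 on the log2 scale, and so did HBEGF, of the same family, by 0.95 and 1.13. PDGFA rose in both, by 1.27 and 0.82, as did WNT5A, by 0.80 in each. CXCL12, counted among the 6 that rose in siQKI, held 28.5, 51.5 and 15.7 there against no more than 1.01 in siCtrl. Its means were 0.65 in siCtrl, 31.9 in siQKI and 12.8 in siRBFOX2. It reached the minimum mean of 10 only through siQKI, so its siQKI call cannot count as support for a rise. In siRBFOX2 CXCL12 did not pass (34.7, 0.0 and 3.71).

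Of 12 tested proteoglycan core proteins other than the members, some of which, such as COL18A1, can also carry heparan sulfate, 6 rose and 3 fell in siQKI, and 1 rose and 2 fell in siRBFOX2. BCAN, a chondroitin sulfate core protein, fell by 2.08 on the log2 scale in siQKI and did not pass in siRBFOX2 (log2 fold change -0.67, adjusted p = 0.443 from limma). Its counts were low and spread, at 279.5, 106.9 and 267.6 in siCtrl and 27.4, 35.8 and 102.8 in siQKI. CD44 fell in both, by 0.32 and 0.69. CHST13, a chondroitin sulfotransferase, rose by 2.34 in siQKI and did not pass in siRBFOX2 (log2 fold change 1.32, adjusted p = 0.136 from limma). Its siCtrl counts were low and spread, at 55.5, 11.99 and 41.25, against 151.7, 145.6 and 179.3 in siQKI. Between the lines, 40 of 68 genes of the list were called, 58.8% against 42.7% of all genes compared, with 16 higher (21.1% of all genes compared) and 24 lower (21.6%) in HPAF-II. SLC26A2, the sulfate importer, was 29.1-fold lower in HPAF-II, whereas PAPSS1, which makes the sulfate donor, was 1.54-fold higher, under the limit for a call. PAPSS2, the other synthase of that donor, named after its values were seen, was called and 5.57-fold lower. Among chondroitin sulfate enzymes CHST11 was 125.1-fold lower and UST 17.7-fold higher, and among other core proteins SRGN was 248.2-fold lower and VCAN 4.90-fold higher, both VCAN levels being rescaled counts under 1. PXYLP1, a phosphatase of the linker, was 5.999-fold higher and B3GALT6 2.35-fold lower, HGSNAT, of lysosomal breakdown, was 4.01-fold higher and SGSH 3.23-fold lower, and the ligands BMP4 and FGF2 stood at log2 ratios of 10.41 and -7.36.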

How the data were processed

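PolyA RNA was sequenced from 9 PANC-1 and 3 HPAF-II libraries. The authors aligned reads to hg38 with STAR 2.7.5a and deposited, per the labels and file headers, gene counts divided by DESeq2 size factors, a signal in normalized counts, with FastQC, Picard and SAMtools also named in the submitters' processing notes. The study's methods describe paired-end reads. Strand handling and the way read pairs were counted are not given in the sources used here. Deposited values were whole multiples of 1 step per library (within 0.01 step), and 82.1% to 84.8% of values up to 30 steps were multiples of 3; a step therefore cannot be read as 1 fragment, the depth in fragments is unknown and no count test was used.

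The 36 members were matched by symbol, and members, gene lists and ratios were chosen with earlier results of these data known. No gene-level test is stated in the study's methods, so limma 3.58.1 (R 4.3.3; lmFit, contrasts.fit, eBayes with trend) was fitted to log2(normalized count + 1) in the 9 PANC-1 libraries together, for genes with a mean of at least 10, two-sided, with Benjamini-Hochberg adjustment over all 22544 genes of each contrast at 0.05. Fold changes of low genes are understated by the pseudocount. The script was tested on simulated data. HPAF-II and PANC-1 were compared as rescaled values with a pseudocount of 0.01, for genes with a mean of at least 10 in either line. Members called in any contrast, or with a mean of at least 50 in a line and called between lines, are given in every library; other pathway genes are named where past the threshold at 1.5-fold or more (6 per knockdown), or with the highest and lowest ratio between lines in their group.

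The study's design describes the 3 libraries of a group as biological replicates; p-values measure the spread between these libraries. Exon length, GC and motifs came from GENCODE v29 (GRCh38), 1 transcript per gene, with Python 3.11.15, pandas 2.3.3, numpy 2.4.6 and matplotlib 3.10.9. GC trends were the median deviation in 20 GC bins per library. Alternatives covered pseudocounts of 0.1 and 10, no filter, a mean of at least 50, other scalings, fits limited to the groups compared, a constant variance prior, a replicate block, leave-outs and a 1.5-fold minimum.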

Additional observations from a re-analysis of the deposited data

How the results depend on the processing

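Counts of called members moved by over 1.5 times under few alternatives. Requiring 1.5-fold left 5 members in siQKI, 2 in siRBFOX2 and 1 between the knockdowns, and fitting without the mean-variance trend left 7 between the knockdowns. Leaving out 1 PANC-1 library at a time gave 12 to 16 calls in siQKI and 9 to 11 in siRBFOX2. Between the knockdowns it gave 8 to 12. Over all tested genes, 27.6% to 34.1%, 21.6% to 26.5% and 17.4% to 21.2% were called in these fits. Leaving out 1 siCtrl library of either line gave 11 to 16 calls between the lines, against 44.5% to 47.9% of all genes compared. Other scalings, a pseudocount of 1, 3-fold and no minimum gave 8 to 14 calls between the lines, where a pseudocount of 1 removed low members.

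Same-numbered libraries did not deviate together (r from -0.0325 to 0.0235 over 9 pairs), so no pairing by number was seen. The labels do not say whether same-numbered libraries were prepared together, and these correlations cannot settle it. With a replicate block, 14, 10 and 13 members were called in siQKI, siRBFOX2 and between the knockdowns, as against 14, 10 and 11. Over all tested genes, 32.5%, 26.1% and 21.1% were called with the block, and 33.0%, 26.5% and 21.5% without it.

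Of 766 values of called members under the alternatives, 720 kept direction and call, 45 lost the call and 1 reversed: GPC1 between the knockdowns, at -0.008 with the GC trend removed, an alternative chosen after seeing the data. Which features of low counts a test could miss was limited by the unknown fragment depth: EXTL1, HS3ST3B1 and GPC3 had standard errors of 0.93 to 1.18 on the log2 scale, and their fold changes above 2 were not resolved.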
